A study of Mus musculus with 48 samples.

Results

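Adora2a, Ptger4 and Crem join the start and the end of 1 signalling route in T cells, the cyclic AMP (cAMP) pathway. They were followed here in every library of a mouse series on T cell receptor stimulation and PD-1 engagement. The 3 genes were found by symbol in both deposited tables. They held 8 of the 18025 tag clusters of the hybridoma table and 7 of the 17272 clusters of the CD4 table, and 3 of the 10098 and 10219 gene symbols. They were selected on measured values, with results of these data known, and it is not recorded which of their RPM values were used. Their levels and differences below are therefore a description, with standard errors (SE) and no p-value.

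The series measured the 5′ ends of capped RNA by CAGE (cap analysis of gene expression) in 48 libraries of total RNA from purified T cells. The cells of 26 libraries were DO11.10, a T hybridoma line of strain label BALB/c x AKR/J with a receptor for an ovalbumin peptide (pOVA). The other 22 came from primary CD4+ T cells of BALB/cCrSlc mice given 2C11, an antibody to the CD3 chains of the T cell receptor. The hybridoma received pOVA at 0, 1, 10, 100, 1000 or 10000 nM and the CD4 cells 2C11 at 0, 10, 100, 1000 or 10000 ng/ml, each dose with and without engagement of PD-1. Each of the 22 groups held 2 libraries, except the 10000 groups, which held 3. All hybridoma groups come from 1 cell line, so no animals are compared there. How and for how long cells were stimulated and PD-1 engaged, and whether replicates came from separate cultures or animals, is not given in the labels. P-values below measure only the spread between these samples, which may be technical.

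Adora2a encodes the A2a receptor for adenosine, and Ptger4 encodes EP4, a receptor for prostaglandin E2. Both couple to the stimulatory G protein Gs and so to adenylyl cyclase, which makes cAMP. Cyclic AMP activates protein kinase A, which phosphorylates CREB and related factors at cAMP response elements and is known to dampen T cell receptor signalling. Crem encodes a family of CREB-related activators and repressors. An internal promoter of Crem gives ICER, a short repressor that is itself induced through cAMP response elements. PD-1 is an inhibitory receptor of activated T cells, and its ligands restrain signalling from the T cell receptor.

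Values are RPM, tags per M tags of a library. The hybridoma libraries held 7.79 to 19.7 M recovered tags (median 14.7) and the CD4 libraries 4.42 to 22.8 M (median 10.2). The tables were normalized separately, so levels of the systems are only set side by side. All of the 5 T cell markers named in the hybridoma table and all 6 in the CD4 table had tags in every library (Cd4 itself is not among the named genes of the hybridoma table). B cell and antigen-presenting cell markers had tags as well. In the hybridoma the 12 markers of that list summed to 939 and 1172 RPM in the dose 0 libraries of number 2 and to 85.05 to 280.65 RPM in all other hybridoma libraries. The log2 differences of the 3 genes from dose 0 of the hybridoma, their midpoints and the share of the rise lost are given with and without those libraries, as are other values that change by over 1.5 times or lose a call without them. In bulk RNA, fewer cells of a type and less RNA per cell cannot be told apart.

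Adora2a was near the floor in the unstimulated hybridoma and rose with antigen. The libraries without engagement gave 1.96 and 0.83 RPM at dose 0, 0.96 and 0.99 RPM at 1 nM, and 1.96 and 2.24 RPM at 10 nM. They gave 19.53 and 17.24 RPM at 100 nM, 29.42 and 23.84 RPM at 1000 nM, and 35.61, 31.78 and 25.17 RPM at 10000 nM. Libraries from 100 nM upward stood above all libraries of the lower doses, while the 1000 and 10000 nM libraries overlapped. The mean at 10000 nM was 22.1-fold that at dose 0. The hybridoma table holds no cluster that stayed under 3.01 RPM in all libraries, and Adora2a was below that level in every dose 0 library. It is thus in that table only through stimulated libraries, and its being higher there was in part fixed by that. On the log2(RPM + 1) scale, which understates the change of low genes, the difference was 3.76 (SE 0.26). It was 3.41 without the dose 0 libraries of number 2. The midpoint of the rise, read from the group means by interpolation, lay at 72.6 nM, or 75.6 nM from the dose 0 library of number 1 alone, where the fold was 15.7.

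In CD4 cells Adora2a was present without stimulation and differed less between doses than in the hybridoma, by a comparison that was not tested. Dose 0 without engagement gave 23.154 and 21.464 RPM, 10 ng/ml gave 19.606 and 19.294 RPM, and 100 ng/ml gave 29.957 and 31.889 RPM. The next doses gave 25.053 and 25.206 RPM at 1000 ng/ml, and 24.057, 24.687 and 24.624 RPM at 10000 ng/ml. The 100 ng/ml libraries were the highest, and the 10 ng/ml libraries the lowest, with no overlap with dose 0. The mean at the top dose was 1.10-fold that at dose 0, a log2 difference of 0.13 (SE 0.12). That value was 0.30 after quantile normalization and 0.26 in edgeR with TMM factors, 0.0757 without the dose 0 library of number 2 and 0.18 without that of number 1.

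Ptger4 is the other receptor. Its only cluster in each table lies on mm9 chromosome 15, minus strand, 5194171 to 5194188 in the hybridoma table and to 5194187 in the CD4 table. No mm9 annotation was used here, so exon and UTR positions are not given, and whether the files count from 0 or 1 is not stated. Of the 3 genes, the RefSeq table (GRCm38.p6) held a promoter for Ptger4 alone. The 250 bases before its annotated start (GRCm38.p6 chromosome 15, 5244188 to 5244437, minus strand) are shown for that reason. Capitals mark a CCAAT box and GC boxes.
Ptger4: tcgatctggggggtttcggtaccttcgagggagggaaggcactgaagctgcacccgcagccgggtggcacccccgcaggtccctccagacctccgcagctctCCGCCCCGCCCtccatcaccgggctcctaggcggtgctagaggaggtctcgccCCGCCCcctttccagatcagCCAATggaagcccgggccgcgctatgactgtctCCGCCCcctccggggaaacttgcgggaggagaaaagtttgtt
The stretch is 66.8% G and C, and the median of all 32851 promoters in that table is 52.4%. Both strands were searched for short motifs over windows of this length. The GC box GGGCGG occurred 4 times, all on the other strand and a pair of them overlapping (32.7% of all promoters hold at least 1). CCAAT occurred 1 time (33.8% of all promoters), and GGAAA, the core of NFAT sites, 2 times (55.6%). There was no match to the full cAMP response element TGACGTCA (1.55% of all promoters), its core TGACG (17.8%), the TATA box TATAAA (12.4%), the AP-1 site TGANTCA (6.75%) or the EGR site GCGTGGGCG (0.536%). These letters were searched in this window only, and the mm9 cluster was not placed on it.

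Ptger4 was detected at every dose in the hybridoma and was higher at and above 100 nM. Without engagement it gave 109.70 and 119.96 RPM at dose 0, 106.15 and 100.39 RPM at 1 nM, and 130.71 and 121.01 RPM at 10 nM. It gave 171.38 and 186.23 RPM at 100 nM, 200.81 and 152.33 RPM at 1000 nM, and 200.84, 147.31 and 163.99 RPM at 10000 nM. The 3 upper doses overlapped one another and stood above the 3 lower ones. The mean at the top dose was 1.49-fold that at dose 0, a log2 difference of 0.56 (SE 0.16), and 0.62 without the dose 0 libraries of number 2.

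In CD4 cells Ptger4 peaked below the top dose. Without engagement it gave 40.092 and 37.648 RPM at dose 0, 32.483 and 35.832 RPM at 10 ng/ml, and 56.573 and 69.933 RPM at 100 ng/ml. The highest libraries were those at 1000 ng/ml, with 88.920 and 99.906 RPM. The top dose gave 72.002, 78.181 and 70.271 RPM, below both 1000 ng/ml libraries and above both 100 ng/ml libraries. The top dose mean was 1.89-fold that at dose 0, a log2 difference of 0.90 (SE 0.10), beside 1.26 (SE 0.11) at 1000 ng/ml. The median of all genes was lower at the top dose too, -0.15 beside -0.003 at 1000 ng/ml. Its part in the peak was not tested.

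Crem, the transcription factor gene, rose in both systems. In the hybridoma without engagement it gave 12.15 and 15.81 RPM at dose 0, 13.49 and 10.82 RPM at 1 nM, and 18.79 and 12.36 RPM at 10 nM. It gave 23.21 and 24.57 RPM at 100 nM, 32.45 and 33.77 RPM at 1000 nM, and 28.86, 36.49 and 29.16 RPM at 10000 nM. The 3 lowest doses overlapped, the 100 nM libraries stood above them, and the 2 upper doses stood above 100 nM and overlapped each other. The top dose was 2.25-fold dose 0 (log2 difference 1.12, SE 0.18), or 1.30 on the log2 scale without the dose 0 libraries of number 2. The midpoint of the rise lay at 72.8 nM, or 56.5 nM from the dose 0 library of number 1 alone.

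In CD4 cells Crem gave 18.081 and 15.839 RPM at dose 0 without engagement, 18.445 and 20.142 RPM at 10 ng/ml, and 21.759 and 20.639 RPM at 100 ng/ml. It gave 28.941 and 29.651 RPM at 1000 ng/ml and 30.115, 29.773 and 29.880 RPM at 10000 ng/ml. Each dose stood above the one before it, though the 2 upper doses were nearly level (29.651 beside 29.773 RPM at their closest). The log2 difference from dose 0 was 0.18 at 10 ng/ml, 0.31 at 100 ng/ml and 0.76 at 1000 ng/ml (SE 0.10 each). The top dose was 1.76-fold dose 0, a log2 difference of 0.79 (SE 0.10). By the threshold used for all genes (adjusted p under 0.05 in limma), 3 of 3 genes passed in the hybridoma, where 28.8% of all genes were called, and 2 of 3 in CD4 cells, where 67.7% were. Since the choice of the genes may have used this contrast, nothing is read from those counts.

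**Figure D1:**
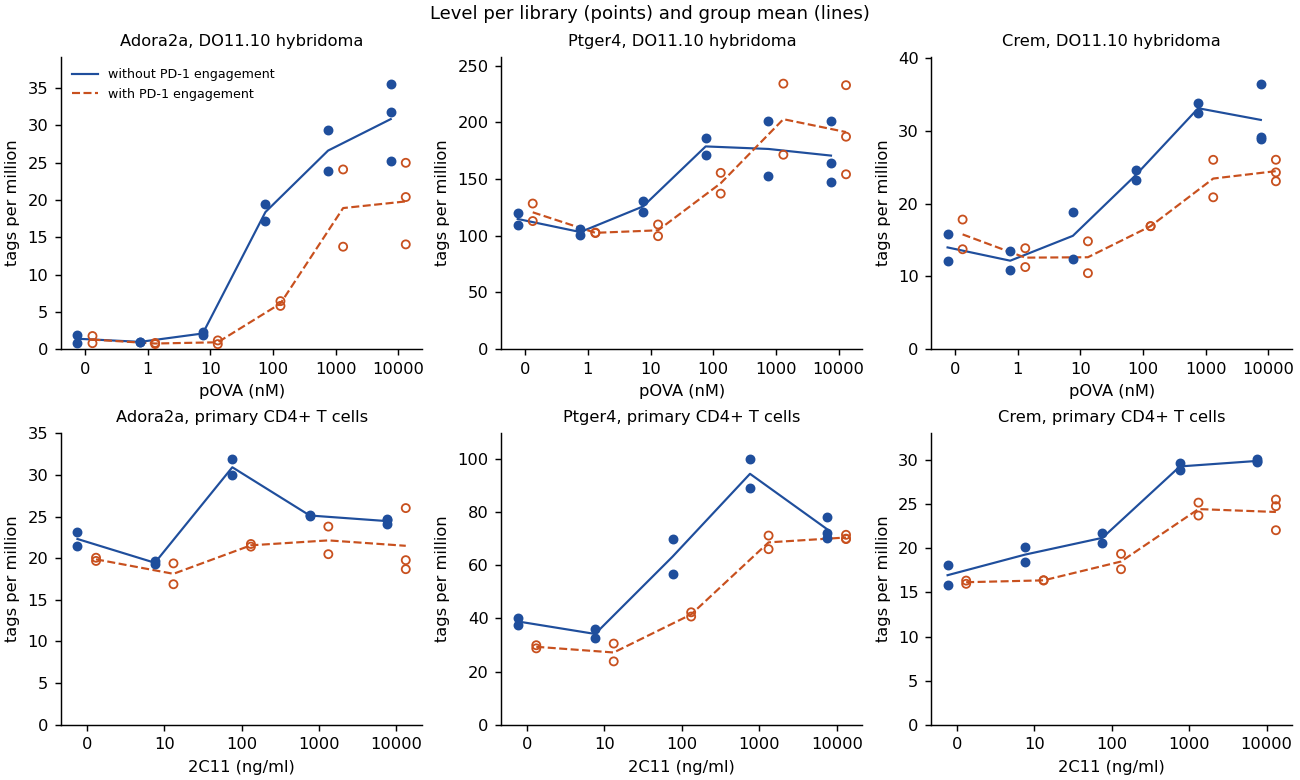
RPM of Adora2a, Ptger4 and Crem in each library (points) against dose, with group means (lines), in the hybridoma (top row) and in CD4+ T cells (bottom row). Without engagement, the group mean of Adora2a goes from 1.395 RPM at dose 0 to 30.9 RPM at 10000 nM in the hybridoma. In CD4 cells its unengaged group means lie between 19.45 and 30.9 RPM.

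With PD-1 engagement, Adora2a was lower in the hybridoma at most stimulated doses. The engaged libraries gave 1.76 and 0.80 RPM at dose 0, 0.83 and 0.68 RPM at 1 nM, and 1.17 and 0.67 RPM at 10 nM. They gave 5.80 and 6.44 RPM at 100 nM, 24.10 and 13.74 RPM at 1000 nM, and 24.99, 20.40 and 14.05 RPM at 10000 nM. All engaged libraries lay below the unengaged ones at 1, 10, 100 and 10000 nM, and the groups overlapped at dose 0 and 1000 nM. Shares of all genes whose groups lay apart were not computed for Adora2a, Ptger4, Crem or their clusters. Nothing is read from such orders, here or below. In the fit without pairs Adora2a was called at 100 nM, beside 0.485% of all genes called lower, and at no other dose. The mean difference over stimulated doses was -0.69 on the log2 scale (SE 0.12), and at 100 nM the difference was -1.44 (SE 0.29). With each curve measured from its own dose 0, 44.2% of the rise summed over stimulated doses was lost, and 37.1% at the top dose. From the unengaged dose 0 for both curves the values were 45.04% and 37.5%, and from the dose 0 libraries of number 1 alone 45.4% and 37.5%. The midpoint of the engaged curve, on its own smaller rise, was 222 nM, or 232 nM from number 1 alone.

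Engaged and unengaged hybridoma libraries of the same dose and number resembled each other and were also compared as pairs. Adora2a was lower with engagement in 11 of 11 stimulated pairs, with ratios of 0.297 to 0.865. Its pairs at 1 nM rested on 13 and 15 tags without engagement and 12 and 12 with it, and the log2 difference there was -0.17 (SE 0.29). With the pairs as a block the SE of the mean difference of Adora2a was 0.067. Crem was lower in 9 of 11 pairs (ratios 0.643 to 1.04). Shares of all genes for such pair counts were not computed, so nothing is read from the counts. The pair counts of Ptger4 are listed by dose under the same limit, and no change of direction with dose is read from them. Ptger4 was lower in all 4 pairs at 10 and 100 nM (ratios 0.8004 to 0.841). It was higher in all 5 pairs at 1000 and 10000 nM (ratios 1.05 to 1.17). At 1 nM it was lower in 1 pair and higher in 1.

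Ptger4 in the engaged hybridoma gave 112.96 and 128.43 RPM at dose 0, 102.81 and 102.37 RPM at 1 nM, and 109.95 and 99.65 RPM at 10 nM. It gave 137.17 and 155.48 RPM at 100 nM, 234.18 and 171.47 RPM at 1000 nM, and 232.81, 154.22 and 187.37 RPM at 10000 nM. The engaged libraries were below the unengaged ones at 10 and 100 nM without overlap, and the groups overlapped at the other doses. No share of all genes was computed for this order. The log2 difference was -0.26 at 10 nM and -0.29 at 100 nM (SE 0.18 each), and 0.20 (SE 0.18) and 0.16 (SE 0.15) at 1000 and 10000 nM. With pairs blocked the SE of these 4 values was 0.0504, 0.0504, 0.0504 and 0.0412. Over all stimulated doses, whose values differ in sign, the mean was -0.04 (SE 0.078, or 0.0218 with pairs blocked), and 0.00297 without the engaged 1000 nM library of number 2.

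Crem in the engaged hybridoma gave 13.73 and 17.81 RPM at dose 0, 13.87 and 11.28 RPM at 1 nM, and 14.82 and 10.44 RPM at 10 nM. It gave 16.91 and 16.89 RPM at 100 nM, 20.87 and 26.02 RPM at 1000 nM, and 24.29, 26.03 and 23.07 RPM at 10000 nM. From 100 nM upward every engaged library lay below every unengaged library of its dose, and below that the groups overlapped. No share of all genes was computed for this order. The mean difference was -0.31 (SE 0.086, or 0.037 with pairs blocked), and 75.9% of the summed rise was lost, or 50.4% at the top dose, with each curve measured from its own dose 0. The engaged dose 0 mean was higher (15.77 beside 13.98 RPM, overlapping groups). From the unengaged dose 0 for both curves the values were 56.6% and 40.2%, and from the dose 0 libraries of number 1 alone 61.5% and 44.5%. The engaged midpoint lay at 310 nM, 226 nM from the common dose 0 and 217 nM from number 1 alone. Adora2a was the 1 gene of the 3 called for engagement in the hybridoma, beside 0.931% of all genes. With pairs blocked Crem was called too, beside 6.51% of all genes. The choice of the genes may have used this contrast as well, so nothing is read from these calls. B cell and antigen-presenting cell markers (12 of 12 in the table, none at 0) summed to 85.05 to 233.6 RPM in stimulated unengaged and 126.73 to 280.65 RPM in stimulated engaged hybridoma libraries, and their part in the result was not tested.

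In CD4 cells the engaged Adora2a libraries gave 20.057 and 19.671 RPM at dose 0, 16.872 and 19.379 RPM at 10 ng/ml, and 21.707 and 21.390 RPM at 100 ng/ml. They gave 23.798 and 20.483 RPM at 1000 ng/ml and 26.020, 18.684 and 19.765 RPM at 10000 ng/ml. The groups did not overlap at 0, 100 and 1000 ng/ml, where the engaged libraries were lower, and the share of all genes that did so was not computed. The log2 differences at 0, 100 and 1000 ng/ml were -0.16, -0.50 and -0.18 (SE 0.13 each). The largest was at 100 ng/ml, where the unengaged libraries had their peak, and Adora2a was called at that dose alone. All genes were shifted at these doses, with medians of -0.23, -0.29 and -0.17 at 0, 100 and 1000 ng/ml and 13.6%, 37.3% and 19.4% of all genes called lower.

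Engaged Ptger4 in CD4 cells was lower already without stimulation. It gave 29.913 and 28.738 RPM at dose 0, 23.831 and 30.534 RPM at 10 ng/ml, and 40.701 and 42.303 RPM at 100 ng/ml. It gave 66.059 and 71.176 RPM at 1000 ng/ml and 69.862, 71.463 and 70.015 RPM at 10000 ng/ml. The groups were apart from dose 0 to 1000 ng/ml and overlapped at the top dose, and the share of all genes that did so was not computed. The log2 difference was -0.39 (SE 0.11) at dose 0, -0.59 (SE 0.11) at 100 ng/ml and -0.06 (SE 0.093) at the top. The median of all genes was -0.23, -0.29 and 0.02 at these doses. The highest engaged mean was at the top dose and the highest unengaged mean at 1000 ng/ml. Against engaged dose 0, the median of all genes was 0.05 at 1000 ng/ml and 0.12 at the top dose.

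Engaged Crem in CD4 cells gave 16.348 and 15.982 RPM at dose 0, 16.396 and 16.354 RPM at 10 ng/ml, and 17.638 and 19.384 RPM at 100 ng/ml. It gave 25.192 and 23.725 RPM at 1000 ng/ml and 25.543, 22.062 and 24.789 RPM at 10000 ng/ml. Engaged libraries lay below all unengaged ones at every stimulated dose and overlapped at dose 0. How many of all genes did the same was not computed, so nothing is read from that order. The log2 differences were -0.22, -0.19, -0.25 and -0.30 at 10, 100, 1000 and 10000 ng/ml, beside medians of all genes of -0.13, -0.29, -0.17 and 0.02. At these doses 0.705%, 37.3%, 19.4% and 2.58% of all genes were called lower. Crem thus fell less than the median gene at 100 ng/ml. By that threshold it was called lower at 10000 ng/ml and not at 10, 100 or 1000 ng/ml (SE 0.10 each). The difference was largest at the top dose, -0.30 (SE 0.085).

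Over the stimulated doses the CD4 difference with engagement was -0.24 (SE 0.061) for Adora2a, -0.36 (SE 0.055) for Ptger4 and -0.24 (SE 0.050) for Crem. All 3 passed the threshold, beside 45.6% of all genes, and the median gene was itself at -0.14. Nothing is read from that count, since the choice of the genes may have used this contrast. After quantile normalization, which moved that median to -0.00057, the values were -0.07, -0.18 and -0.06. With TMM factors on recovered tags they were -0.09, -0.21 and -0.09. The split of all called genes moved from 458 higher and 4205 lower to 1440 and 1301 after quantile normalization. B cell and antigen-presenting cell markers (11 of 12 in the table, none at 0) summed to 532.5 to 905 RPM in stimulated unengaged and 565 to 1207 RPM in stimulated engaged CD4 libraries. Their part in the result was not tested. The stimulation and engagement comparisons of a system share their unengaged libraries.

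**Figure D2:**
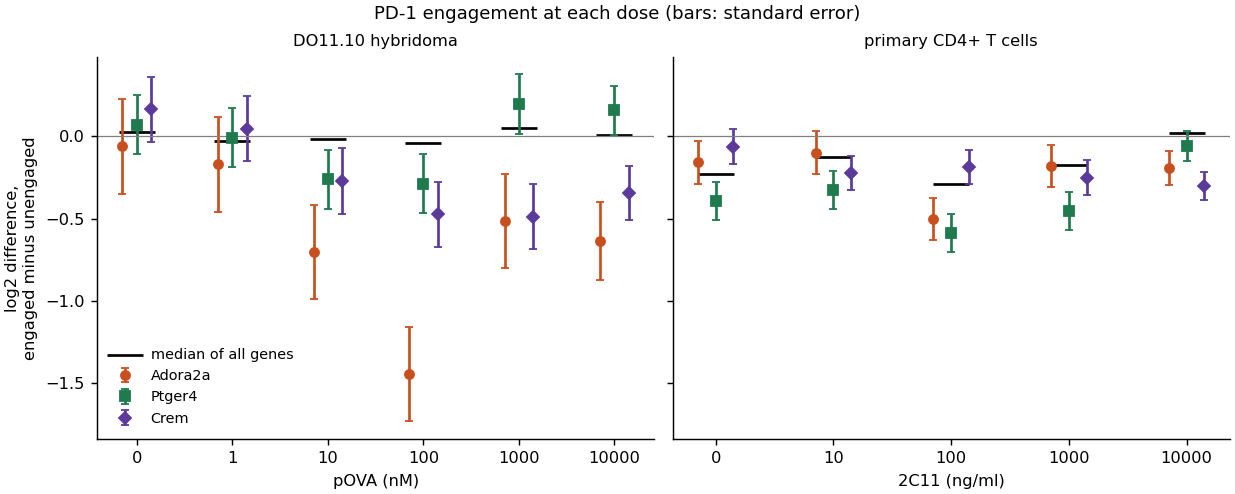
Log2 difference of engaged minus unengaged libraries at each dose, with SE bars, for the 3 genes, and the median of all genes (black dashes), in the hybridoma (left) and CD4 cells (right). Adora2a reaches -1.44 at 100 nM in the hybridoma, and Ptger4 is above 0 at 1000 and 10000 nM.

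Clusters within a gene give start sites apart. The 4 Crem clusters lie on mm9 chromosome 18, minus strand, in 2 pairs 55.5 kb apart. In the order of transcription the hybridoma table has upstream clusters at 3337532 to 3337628 and 3337317 to 3337380, and downstream clusters at 3281733 to 3281771 and 3281027 to 3281077. The downstream clusters are 656 bases apart. In the CD4 table the 4 clusters start at 3337532, 3337319, 3281733 and 3281041. None was matched to an isoform such as ICER, since no mm9 annotation was used.

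The most downstream Crem cluster, starting at 3281027, had the largest fold of the 4 in the hybridoma. Without engagement it gave 2.32 and 3.54 RPM at dose 0, 2.61 and 1.51 RPM at 1 nM, 4.49 and 2.74 RPM at 10 nM, and 8.14 and 8.30 RPM at 100 nM. It gave 10.15 and 11.21 RPM at 1000 nM and 10.06, 13.92 and 10.79 RPM at 10000 nM. Libraries from 100 nM upward stood clear of all lower doses. The top dose was 3.96-fold dose 0, beside 1.89-fold for the other downstream cluster and 1.99-fold and 1.56-fold for the upstream clusters at 3337317 and 3337532. From the dose 0 library of number 1 alone these folds were 4.996, 2.29, 1.43 and 1.89, so the order of the last 3 clusters depends on the dose 0 library. Its share of all Crem tags was 18.3 to 22.4% in the 4 dose 0 libraries and 34.9 to 38.1% in the unengaged top dose libraries.

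With engagement that cluster gave 2.51 and 3.29 RPM at dose 0, 3.19 and 1.82 RPM at 1 nM, 2.83 and 2.13 RPM at 10 nM, and 4.23 and 4.75 RPM at 100 nM. It gave 7.46 and 6.89 RPM at 1000 nM and 7.26, 9.08 and 7.69 RPM at 10000 nM. From 100 nM upward these were below every unengaged library of the same dose. Of the summed rise, 52.8% was lost, and 50.7% when measured from the dose 0 libraries of number 1 alone, from which the unengaged fold was 4.996. Its share of Crem tags at the top dose was 29.9 to 34.9% with engagement, still above the dose 0 range.

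In CD4 cells the corresponding cluster, starting at 3281041, went from 4.074 and 4.821 RPM at dose 0 to 10.237, 11.664 and 11.712 RPM at the top dose without engagement, 2.52-fold. Its share was 19.9 to 31.7% in the 4 dose 0 libraries and 34.0 to 39.2% at the top dose. With engagement it gave 10.007, 8.972 and 9.045 RPM at the top dose, below every unengaged library, and 25.4% of the summed rise was lost. The upstream cluster at 3337319 had 0.876-fold its dose 0 level at the top dose, and that at 3337532 had 1.94-fold. The 4 Crem clusters thus differed in their fold in both systems, and that difference was not tested.

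**Figure D3:**
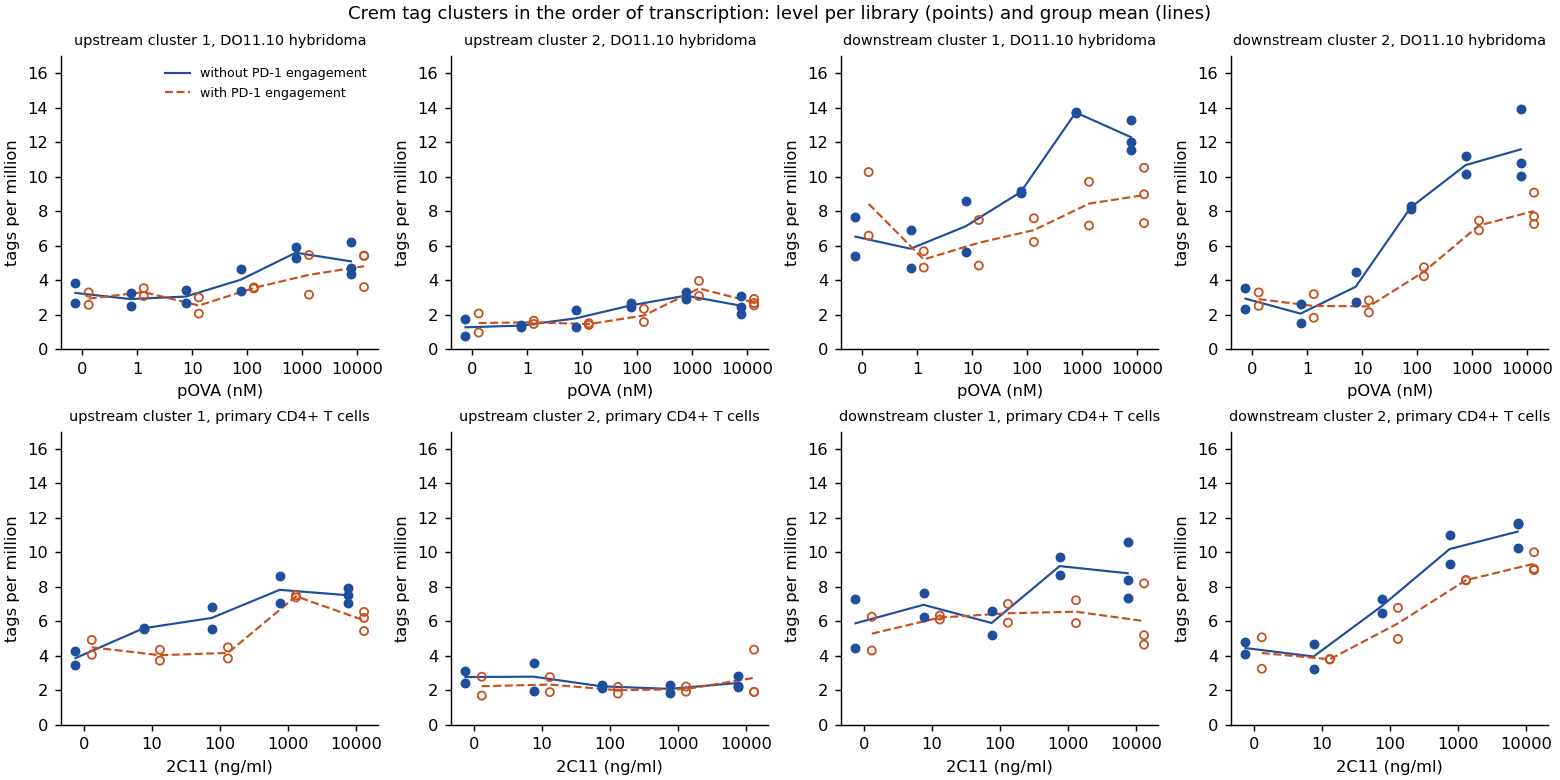
RPM of the 4 Crem clusters per library (points) against dose with group means (lines), ordered from the most upstream to the most downstream cluster, for the hybridoma (top) and CD4 cells (bottom). The most downstream cluster rises 3.96-fold and 2.52-fold without engagement.

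The Adora2a clusters lie on mm9 chromosome 10, plus strand, at 74779451 to 74779530 (hybridoma table only), 74779621 to 74779719 (to 74779684 in the CD4 table) and 74779826 to 74779867 (to 74779863). In the hybridoma the middle cluster, starting at 74779621, went from 0.56 and 0.24 RPM at dose 0 to 17.56, 14.27 and 12.20 RPM at the top dose without engagement. The downstream cluster, starting at 74779826, went from 1.21 and 0.47 RPM to 13.52, 13.57 and 9.37 RPM. The most upstream cluster went from 0.19 and 0.12 RPM to 4.53, 3.94 and 3.60 RPM. The folds of the middle and downstream clusters were 36.7 and 14.5, or 26.21 and 10.04 from the dose 0 library of number 1 alone. The dose 0 levels are few tags, since the downstream cluster had 50 in all 4 dose 0 libraries, the middle cluster 17 and the most upstream cluster 6, with 0 in at least 1 library, so no fold is given for the last.

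The balance between the Adora2a clusters moved with dose. The middle cluster held 14.3 to 30.0% of Adora2a tags in the 4 dose 0 libraries of the hybridoma and 44.9 to 49.3% at the top dose without engagement. The downstream cluster held 57.1 to 78.6% and then 37.2 to 42.7%. In CD4 cells the downstream cluster held 92.5 to 95.3% at dose 0 and 84.8 to 90.2% at the top dose, and the cluster at 74779621 held 4.69 to 7.49% and then 9.76 to 15.2%. The share of the cluster at 74779621 was thus higher at the unengaged top dose than at dose 0 in both systems, without overlap. The tables hold no cluster that stayed under 3.01 RPM (hybridoma) or 3.002 RPM (CD4) in all libraries. At dose 0 the cluster at 74779621 was below that level in both, so its higher level and share with stimulation were in part fixed by that. In the hybridoma the other Adora2a clusters were also below it at dose 0. How many of all clusters moved this way was not computed. The level of the cluster at 74779621 in CD4 cells was 1.429 and 1.607 RPM at dose 0 and 3.668, 2.631 and 2.402 RPM at the top dose, while the sum of the gene was nearly flat.

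**Figure D4:**
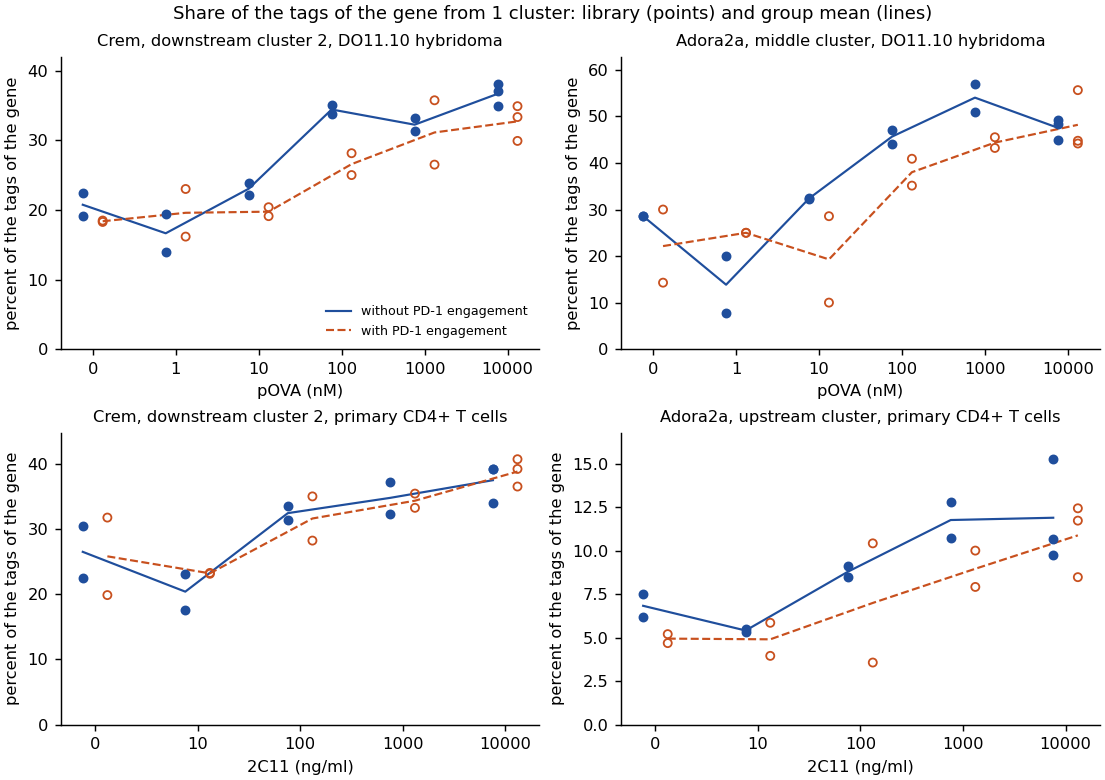
Percent of the tags of Crem from its most downstream cluster (left) and of Adora2a from the cluster starting at 74779621 (right) in each library (points), with group means (lines), against dose. The Crem share rises from 18.3 to 22.4% at dose 0 to 34.9 to 38.1% at the top dose in the unengaged hybridoma.

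By rule, the 3 genes whose log2 levels over all libraries of a system were most like each gene are named, as a description with Pearson's r and no test. These libraries share doses and engagement, so genes that respond to either resemble each other. In the hybridoma (26 libraries, 7642 genes of at least 5 RPM on average) Adora2a was most like Srxn1 (r = 0.990), Obfc2a (0.988) and Gramd1b (0.988). Ptger4 was most like Ptpn1 (0.961), Lef1 (0.954) and Per1 (0.938), and Crem most like Runx1 (0.959), Ppp1r15a (0.953) and Fosl2 (0.949). In CD4 cells (22 libraries, 7838 genes) Adora2a was most like Rrm1 (0.901), Lcp1 (0.881) and Mgat5 (0.865). Ptger4 was most like Ppip5k2 (0.993), Lrpprc (0.988) and Mars (0.987), and Crem most like Sar1a (0.971), Btg3 (0.962) and Cd40lg (0.961). No gene was named for the same member in both systems. Between the members, r was 0.907 for Adora2a and Crem in the hybridoma and 0.504 in CD4 cells, and 0.787 and 0.906 for Ptger4 and Crem.

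The other genes of the pathway were taken from 9 lists of 96 genes in all, of which the hybridoma fit held 49 and the CD4 fit 55. Calls are from limma with Benjamini-Hochberg adjustment over all genes tested. With stimulation at the top dose, 12 of 49 rose and 12 fell in the hybridoma, where 8.09% of all genes rose and 20.8% fell. The median list gene was at -0.23 and the median of all genes at -0.18. Without the dose 0 libraries of number 2, 12 rose and 10 fell, where 7.34% of all genes rose and 9.96% fell. In CD4 cells 21 of 55 rose and 24 fell, where 27.5% of all genes rose and 40.1% fell, with medians of -0.14 and -0.15. Quantile normalization moved the median of all genes to -0.04 and -0.03, and the hybridoma genes called overall from 817 higher and 2095 lower to 1298 and 1432.

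Among the other receptors that raise cAMP, 1 of 3 fell in the hybridoma and 0 rose. Adrb1, an adrenergic receptor, fell by 0.62 (SE 0.20, adjusted p = 0.0270). After quantile normalization it was at -0.37 (adjusted p = 0.263), and it was not called without either dose 0 library or the top dose library of number 3 (adjusted p up to 0.136). In CD4 cells 3 of 5 rose and 2 fell. Ptger2, which encodes EP2, the other Gs-coupled receptor of prostaglandin E2, rose by 2.32 (SE 0.16, adjusted p = 2.05e-10). Adora2b, the other Gs-coupled adenosine receptor, was at 0 to 0.214 RPM at dose 0 and 3.412 to 5.218 RPM at the top dose without engagement. The proton-sensing Gpr65 rose by 1.40, the VIP receptor gene Vipr1 fell by 2.34 and the prostacyclin receptor gene Ptgir fell by 1.61. Receptors of adenosine and prostaglandin E2 that do not raise cAMP (Adora1, Adora3, Ptger1 and Ptger3) gave 0 tested genes in either table. The tables hold no cluster that stayed under 3.01 RPM (hybridoma) or 3.002 RPM (CD4) in all libraries, so lower genes are not analysed here. A gene below that level in every dose 0 library is in the table only through stimulated libraries, and its being higher there was in part fixed by that. This holds for 2 of the 12 genes that rose in the hybridoma (Fos and Fosb) and 6 of the 21 in CD4 cells (Adora2b, Slc29a2, Fos, Fosb, Nr4a2 and Nr4a3), so their calls are given as a description. The same limit applies to Adora2a in the hybridoma.

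Of 5 G protein and adenylyl cyclase genes, Adcy9 fell in the hybridoma by 0.94 (SE 0.27, adjusted p = 0.0146; -0.74 and adjusted p = 0.109 after quantile normalization), and 4 of 5 fell in CD4 cells, among them Gnai2, an inhibitory G protein subunit, by 1.09 and the cyclase gene Adcy7 by 0.87. Phosphodiesterases, which break cAMP down, fell in 3 of 4 tested in the hybridoma and 5 of 7 in CD4 cells, and none rose. Pde3b fell by 1.14 in both systems (adjusted p = 0.00142 and 4.55e-05), and Pde7a fell by 1.08 and 1.02. Pde4d, at -0.53 in the hybridoma, was not called after quantile normalization (adjusted p = 0.355), nor with any 1 of the unengaged dose 0 and top dose libraries left out (up to 0.184). Adcy9 was not called without dose 0 number 1 or top dose number 3 (up to 0.131). In CD4 cells Pde2a fell by 3.03 (SE 0.16, adjusted p = 5.77e-12) and Pde4b by 1.83. The list medians were -0.80 and -1.02.

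Of 13 genes of protein kinase A, its anchors and Epac, 3 fell and 0 rose in the hybridoma, led by Rapgef3, which encodes Epac1 (-1.15, SE 0.18, adjusted p = 1.28e-04), and the catalytic subunit gene Prkacb (-0.77). Prkar2b, at -0.58, was not called after quantile normalization (adjusted p = 0.0890), nor without dose 0 number 1 or top dose number 3 (up to 0.246). In CD4 cells 3 of 11 rose and 5 fell, with Prkacb at -1.49 and the anchor genes Akap13 at -1.38 and Akap1 at 1.43. Of the 9 other genes of the CREB family and its coactivators, 2 rose and 3 fell in the hybridoma, and 2 rose and 4 fell in CD4 cells. Sik3, a kinase that restrains the CREB coactivators, rose in both (1.27 and 1.06), and Sik1 rose in the hybridoma by 1.76 (SE 0.25, adjusted p = 4.46e-05). The coactivator gene Crtc3 fell in both (-0.74 and -1.70), as did Creb1 (-0.60 and -0.88). Crebzf fell in the hybridoma (-0.77), with -0.70 and adjusted p = 0.0795 without the dose 0 libraries of number 2, and was not called without top dose number 3.

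Of the genes of adenosine supply and clearance, 2 of 4 rose in the hybridoma. Nt5e, which encodes CD73, the enzyme that makes adenosine from AMP outside the cell, rose by 2.28 (SE 0.16, adjusted p = 4.75e-09), and the nucleoside transporter gene Slc29a1 rose by 0.69. In CD4 cells 4 of 7 rose and 3 fell. Slc29a2 and Slc29a1, both nucleoside transporters, rose by 1.97 and 1.75, while Dpp4, also on that list, fell by 1.67. Of the prostaglandin E2 genes, Ptges2 fell in the hybridoma (-0.37, adjusted p = 0.0284, and 0.371 after quantile normalization, or up to 0.134 without either dose 0 library or top dose number 2 or 3) and rose in CD4 cells (0.47, adjusted p = 0.00490). Of textbook cAMP-induced genes, many of which T cell receptor signalling also induces, 8 of 8 tested rose in the hybridoma, and 8 of 9 rose and 1 fell in CD4 cells. Nr4a1, Nr4a3 and Fos led in the hybridoma (5.33, 4.04 and 2.29), and Nr4a3, Nr4a1 and Nr4a2 in CD4 cells (5.12, 3.91 and 2.23).

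**Figure D5:**
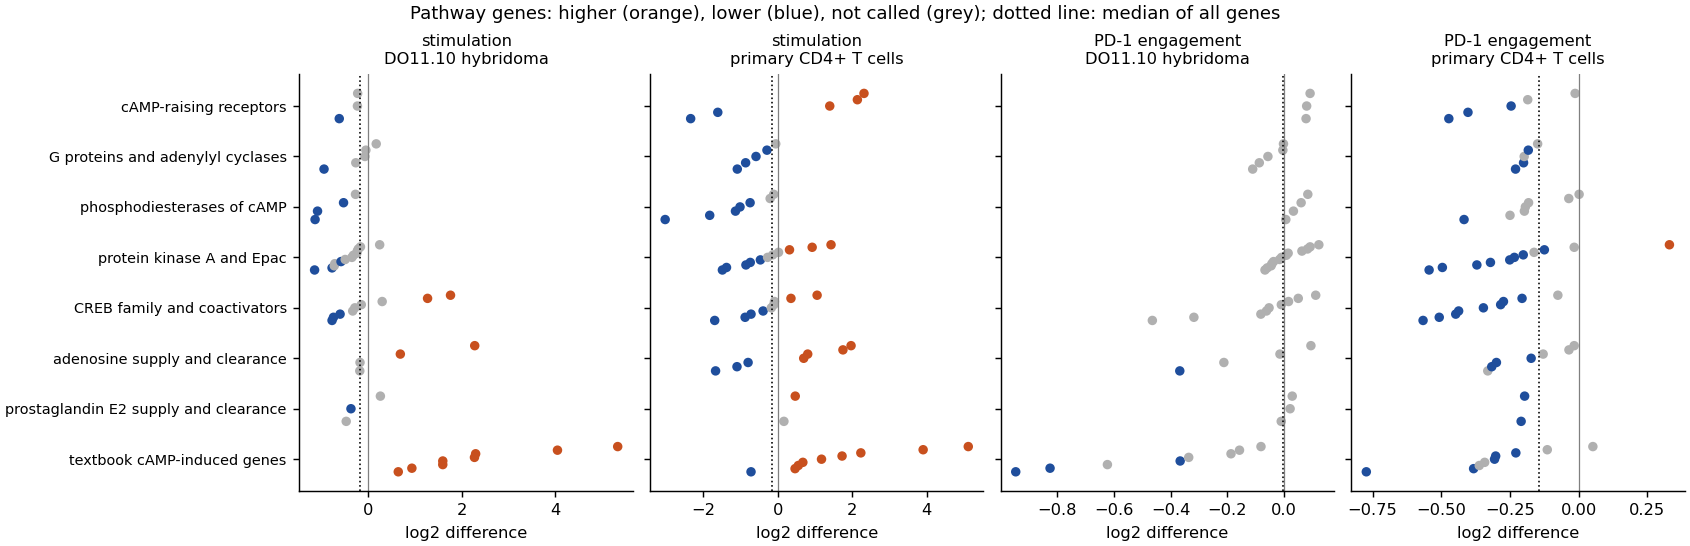
Log2 differences of the tested pathway genes by list (rows) for stimulation and PD-1 engagement in each system, 1 point per gene, orange for called higher, blue for called lower and grey for not called; the dotted line is the median of all genes. Stimulation gives 12 higher and 12 lower in the hybridoma, and engagement 33 lower and 1 higher in CD4 cells.

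With PD-1 engagement 4 of 49 pathway genes changed in the hybridoma, all lower, where 0.872% of all genes were lower and 0.0594% higher. Nt5e fell by 0.37 (SE 0.076, adjusted p = 0.0181, and 0.0708 after quantile normalization), and without 1 of 4 libraries of number 2, at 10 or 100 nM or engaged at 1 or 1000 nM, its adjusted p was up to 0.0665. Nr4a1 fell by 0.95 (SE 0.11, adjusted p = 9.06e-05), Nr4a3 by 0.82 and Rgs2, a regulator of G protein signalling, by 0.37. With pairs blocked the count was 11, all lower, among 6.51% of all genes called in either direction. The 7 added were Slc29a1 (-0.21), Sik1 (-0.46), Sik3 (-0.32), Gnas (-0.11), Fos (-0.34), Fosb (-0.62) and Junb (-0.19). None of the other 3 receptors, 4 phosphodiesterases or 13 protein kinase A genes was called in either fit. Ptgir and Gpr65, the most abundant of the 3 other receptors, were at 0.09 (SE 0.062) and 0.08 (SE 0.058). Pde7a and Pde3b were at 0.03 (SE 0.090) and 0.08 (SE 0.11).

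In CD4 cells 33 of 55 pathway genes were lower with engagement and 1 was higher, where 41.2% of all genes were lower and 4.48% higher. After quantile normalization 14 were lower and 2 higher, 29.1% of the 55 beside 26.8% of all genes. With edgeR and TMM factors 13 were lower and 2 higher, 27.3% beside 29.0% of all genes. The share of the lists called was thus near that of all genes in both, and the counts by list below are a description in the first scaling. Of the other receptors 3 of 5 fell, Ptger2 by 0.47 (SE 0.083, adjusted p = 2.35e-04), Adora2b by 0.40 and Gpr65 by 0.25. Of these, Ptger2 was also called in both alternative scalings, while Gpr65 was called in neither (adjusted p = 0.368 and 0.378), and Adora2b was not called in edgeR (adjusted p = 0.350). Of the CREB family 8 of 9 fell, led by Sik1 (-0.57), Sik3 (-0.51) and Crebbp (-0.45), which were called in both alternative scalings too. Of the protein kinase A list 8 of 11 fell, led by Prkar2a (-0.54), and Pkig, an inhibitor of protein kinase A, rose by 0.33 (SE 0.10, adjusted p = 0.0144). Of the cAMP-induced list 5 of 9 fell, led by Nr4a3 (-0.77) and Nr4a1 (-0.38), and of the phosphodiesterases Pde3b fell by 0.42 (adjusted p = 0.00344, and 0.0691 in edgeR). The list medians ran from -0.35 to -0.17, below the median of all genes in each of the 8 lists with a tested gene. Of the remaining lists 3 of 5, 3 of 7 and 2 of 2 fell, with Gnas at -0.23, Ada at -0.32 and Abcc4 at -0.21, and of these 3 Gnas alone was called after quantile normalization and none in edgeR. Abcc4 lost its call in 13 of 18 fits that left out 1 library (adjusted p up to 0.109).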

How the data were processed

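CAGE tag clusters were used as deposited, 1 table per system, with levels in RPM made by the authors. The submitters' processing notes name BWA 0.7.12, HISAT2 2.0.5 and build mm9. The roles of these tools, the cluster calling and the assignment of symbols are not stated in the labels. Low RPM values were whole multiples of 1 step, which returned whole tags (within 0.1 tag) for 99.98 to 100% of values and the library totals.

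RPM was summed per symbol over clusters with 1 symbol. For each table, limma 3.58.1 with a trend (R 4.3.3) was fitted to log2(RPM + 1) with 1 mean per group over genes of at least 1 RPM in at least 2 libraries, and two-sided p-values adjusted by Benjamini-Hochberg (threshold 0.05). This gave 10094 and 10217 genes. edgeR 4.0.16 with TMM factors on recovered tags (1356 genes higher and 1705 lower with stimulation in the hybridoma and 3472 and 3596 in CD4 cells; 8 and 83, and 1624 and 1335, with engagement), other scalings, pseudocounts, filters, blocks and left-out libraries were alternatives. Other choices of dose 0 for the share of the rise lost and the midpoints were added after seeing the data. The scripts were tested on simulated data. Tables were prepared in Python 3.11.15.

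The genes and lists were chosen with earlier results of these data known, and 1 listed gene is not reported here. Named list genes are up to 3 called per list and contrast, by size, or up to 2 by level where none was called.

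In the hybridoma, deviations of engaged and unengaged libraries of 1 dose and number correlated at 0.282 to 0.660 in 13 of 13 pairs (8 distinct values, since 2 libraries of a group mirror each other), so numbers were taken as pairs for engagement. Marker lists held T cell (6 genes), B cell and antigen-presenting cell (12), myeloid (7) and CD8 and NK cell (6) genes. Of the last 2 lists, only Cst3 (72.03 to 97.14 RPM in the hybridoma, 146.2 to 194.3 in CD4 cells) and Gzma in both tables and Cd8b1 in the CD4 table were named (3.77 to 8.23 and summed 16.4 to 29.1 RPM).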

Additional observations from a re-analysis of the deposited data

Results flagged for a closer look

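A pair of clusters with no gene symbol in the hybridoma data lay 13087 bases and more upstream of the Adora2a clusters, on mm9 chromosome 10 at 74766084 to 74766100 (minus strand) and 74766362 to 74766364 (plus strand), 262 bases apart. They are outside the gene sums. Without engagement the minus cluster gave 0.19 and 0.06 RPM at dose 0, 3.68 and 3.38 RPM at 100 nM, and 3.24 to 5.39 RPM at the top dose, with a mean of 4.66 RPM (n = 3). The plus cluster gave 0.19 and 0.06 RPM at dose 0, 2.77 and 2.58 RPM at 100 nM, and 4.55 to 5.52 RPM at the top dose, with a mean of 4.98 RPM (n = 3). With engagement they gave 1.57 and 1.61 RPM, and 0.78 and 0.51 RPM, at 100 nM, below both unengaged libraries. At 1000 nM the engaged minus cluster (3.08 to 4.26 RPM) overlapped the unengaged one (3.64 to 5.46 RPM), as it did at the top dose (2.15 to 3.43 RPM with engagement). The engaged plus cluster lay below the unengaged one at 1000 nM (2.28 to 2.51 beside 3.73 to 4.63 RPM) and at the top dose (3.05 to 3.95 RPM). Both clusters are in the table only through stimulated libraries, so no test is given. Counting error at dose 0 is large, since each cluster had 3 tags in both unengaged dose 0 libraries together.

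For 6 pathway genes, every top dose library lay on one side of dose 0 in the hybridoma and on the other side in CD4 cells. They are 13.6% of the 44 pathway genes tested in both systems, beside 7.48% of all 9347 genes tested in both. The difference between the systems was not tested, and stimulus and cells differ. The log2 differences in the hybridoma and in CD4 cells were -0.71 and 1.43 for Akap1, 0.93 and -0.72 for Dusp1, and 0.17 and -0.29 for Gnas. They were -0.23 and 1.40 for Gpr65, 2.28 and -0.80 for Nt5e, and -0.37 and 0.47 for Ptges2. Of these, Akap1, Gnas and Gpr65 were not called in the hybridoma by limma (adjusted p = 0.0536, 0.349 and 0.173; SE 0.27, 0.14 and 0.12), where the median of all genes was -0.18.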

How the results depend on the processing

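The values of Adora2a, Ptger4 and Crem kept their direction in every alternative run, except that Ptger4 with engagement in the hybridoma, near 0 throughout, ran from -0.0865 to 0.00297 when single libraries were left out. Stimulation of Adora2a in the hybridoma was 4.10 with a pseudocount of 0.5, 2.48 with 5, 4.71 in edgeR with TMM factors, 3.41 without both dose 0 libraries of number 2, and 3.41 to 4.11 with single libraries left out. Crem there was 1.33 after quantile normalization. In CD4 cells Crem was 0.67 with a pseudocount of 5, 0.94 after quantile normalization and in edgeR, and 0.70 to 0.88 with single libraries left out. Adora2a there was 0.30 after quantile normalization and 0.26 in edgeR, and Ptger4 1.06 in edgeR. CD4 engagement differences of Adora2a, Ptger4 and Crem were -0.071, -0.18 and -0.058 after quantile normalization and -0.090, -0.21 and -0.091 in edgeR, and the count of pathway genes was 16 and 15 in place of 34. Adk there was 0.0074 after quantile normalization (adjusted p = 0.937). With the replicate block (pairs) the hybridoma engagement count was 11 in place of 4. In CD4 cells same-numbered libraries share only a number (correlations -0.0446 to 0.322, 4 of 11 over 0.1, or 3 of 7 distinct values, and 4 of 6 top dose libraries most like their own number), and the block gave 37 in place of 34. Left-out libraries gave counts of 17 to 23 and 3 to 6 in the hybridoma and of 40 to 44 and 29 to 37 in CD4 cells for stimulation and engagement. Over all alternatives but left-out libraries, single named list genes stayed on their side of the threshold 369 times and lost their call 35 times. With the replicate number as a block factor, the stimulation calls of Pde4d (adjusted p = 0.0762) and Ptges2 (0.0570) in the hybridoma were lost. With pairs blocked, the engagement call of Abcc4 in CD4 cells was lost (adjusted p = 0.0698). A lone library left in a group is assumed to vary like the other groups. Adding clusters with several symbols was not run, since those clusters name no gene. The cause of these shifts was not tested. Levels near 3 tags (0.152 to 0.385 RPM in the hybridoma, 0.132 to 0.678 in CD4 cells) are limited by depth.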
